A study of Rattus norvegicus with 30 samples.

Results

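The imprinted Dlk1-Dio3 domain on rat chromosome 6 holds a long array of miRNA genes, and 38 miRNA names of this array were followed in rat liver after partial hepatectomy, rno-miR-376b-3p, rno-miR-376c, rno-miR-667, rno-miR-540 and rno-miR-410 among them, written without the species prefix from here on. The 38 were the names of a set list for the locus that the scanner tables held, star strands left out. The arrays held further miRNAs of the locus outside that list, such as miR-300 and miR-380, which are given apart. They were 38 of 388 rat miRNA names on the hepatectomy arrays, 38 of 680 on the sham arrays and 38 of the 376 names shared by both. Male Wistar rats had 70% of the liver removed and liver tissue was taken at 0, 2, 6, 12, 24 and 48 h and 5 d, or they had a sham laparotomy, in which the abdomen is opened and the liver left whole, with tissue taken at 12, 24 and 48 h. Each of the 10 groups held 3 arrays, described by the submitters as biological replicates. The sources used here do not give the age of the animals. Whole liver was used, so fewer cells of a type and less RNA per cell cannot be told apart. The assay was a 1-colour microfluidic chip (febit) on which a captured miRNA primes its own enzymatic extension with biotin-labelled nucleotides.

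In the Dlk1-Dio3 domain the protein-coding genes Dlk1, Rtl1 and Dio3 are expressed from the paternal chromosome, and the long noncoding RNAs and miRNAs from the maternal one. The miRNAs are cut from long maternal transcripts. They are abundant in embryo, placenta and brain and low in most adult tissues, liver among them. In the mouse, the stretch between miR-379 and miR-410 is known for its part in the metabolic adaptation of the newborn, in which the liver takes part. The miR-431, miR-433, miR-127, miR-434 and miR-136 hairpins lie antisense to Rtl1 and can direct cleavage of its transcript.

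The sequences below belong to the members on which the results turn, with the seed (bases 2 to 8, counted from the 5′ end) in capitals. The seed is the part of a miRNA that pairs with its targets. All 38 names matched a hairpin gene of RefSeq's rat annotation (GRCr8), on chromosome 6 and the plus strand. The hairpins came from 35 genes, of which 10 names lie before Mir379, the side of Rtl1, and 28 lie from Mir379 on. A chip name gave no arm for 29 of the 38, so both arms of such a hairpin are shown. Positions are those of RefSeq's GRCr8, while the deposited tables hold no coordinates and no probe sequences. The first set is the miR-376 family, the members of which lie side by side.
miR-376c-5p (chr6:134558219-134558239): gUGGAUAUuccuucuauguuu
miR-376c-3p (chr6:134558256-134558276): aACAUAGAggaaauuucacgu
miR-376b-5p (chr6:134558876-134558897): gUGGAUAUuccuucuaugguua
miR-376b-3p (chr6:134558913-134558933): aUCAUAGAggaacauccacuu
miR-376a-5p (chr6:134559383-134559403): gGUAGAUUcuccuucuaugag
miR-376a-3p (chr6:134559421-134559441): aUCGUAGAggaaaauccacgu

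The 3′ arms of miR-376a and miR-376b were identical at 18 of 21 aligned bases and differed at 1 base of the seed. Those of miR-376b and miR-376c were identical at 16 of 21 bases, again with 1 difference in the seed. The 5′ arms of miR-376b and miR-376c were identical at 20 of 21 bases and had the same seed, UGGAUAU. That seed was 1 of 3 shared by more than 1 mature miRNA among the 65 mature sequences of the member hairpins, which had 62 distinct seeds. AUACAAG was common to miR-381-3p and miR-539-3p, and GGUUGUC to miR-410-5p and miR-494-5p. Binding of a probe to a near-identical relative was not tested. In human and mouse brain, RNA editing of miR-376 precursors is known to change a base of the seed. Editing cannot be read from these intensities.

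The second set holds miR-667, with the largest differences from 0 h among the 38, and miR-540 and miR-410, which stood apart from sham at 24 h.
miR-540-5p (chr6:134321438-134321460): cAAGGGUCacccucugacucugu
miR-540-3p (chr6:134321475-134321496): aGGUCAGAggucgauccugggc
miR-667-5p (chr6:134555351-134555374): cGGUGCUGguggagcagugagcac
miR-667-3p (chr6:134555392-134555413): uGACACCUgccacccagcccaa
miR-410-5p (chr6:134579773-134579793): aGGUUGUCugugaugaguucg
miR-410-3p (chr6:134579808-134579828): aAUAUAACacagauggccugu

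Across the series, the median raw spot intensity was 544 to 608 on 8 hepatectomy arrays and 976 to 1328 on the other 13, which include all 3 arrays at 24 h. It was 296 to 408 on the sham arrays. Replicate arrays of a group correlated at 0.728 to 0.976 over names. The hepatocyte miRNAs miR-122, miR-192 and miR-194 lay above background on every array of all 10 groups, so the samples carried the markers of liver. Hepatectomy arrays had 15 spots per name and sham arrays 22, in separate tables.

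Most members were dim. A name is called above background on an array here where at least 3 in 4 of its raw spots (the 25th percentile) exceeded the constant that the authors subtracted on that array. By this measure the members lay above background on a median of 10 of the 21 hepatectomy arrays, against 13 for all names, and on 2 to 18 arrays each. miR-667 was above on 18, miR-329 and miR-431 on 17, miR-377 on 16, and miR-495 and miR-540 on 15. miR-376b-5p was above on 2, and no member on all 21. In sham livers, 24 of the 38 were above background on none of the 9 arrays, and the highest counts were 7 for miR-329 and miR-667 and 6 for miR-431.

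The members that could be measured changed with the time group. On all 3 arrays of the group, 0 h had 2 members above background (miR-377 and miR-667), 2 h and 6 h none, 12 h had 20, 24 h had 15, 48 h had 3 and 5 d had 2. The same counts over all 388 names were 127, 44, 25, 256, 242, 71 and 88, so more names of every kind were measurable at 12 and 24 h. The summed intensity over background of the 38 ran from 3536 to 8452 over the 3 arrays at 24 h, against 648 to 3028 at 0 h, where the hepatocyte markers summed to 2056.5 to 14221 at 24 h and 7916 to 56389 at 0 h. The median over background of all 388 names was also higher at 24 h, at 264, 136 and 112 units on the 3 arrays, against 64, 32 and 64 at 0 h. That of the members was 210, 112 and 80, against 32, 8 and 48. The part of array background and signal range in these counts and sums was not tested. Sham groups had none, 3 and none of the members above background on all 3 arrays at 12, 24 and 48 h, and the 3 were miR-329, miR-431 and miR-667.

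**Figure D1:**
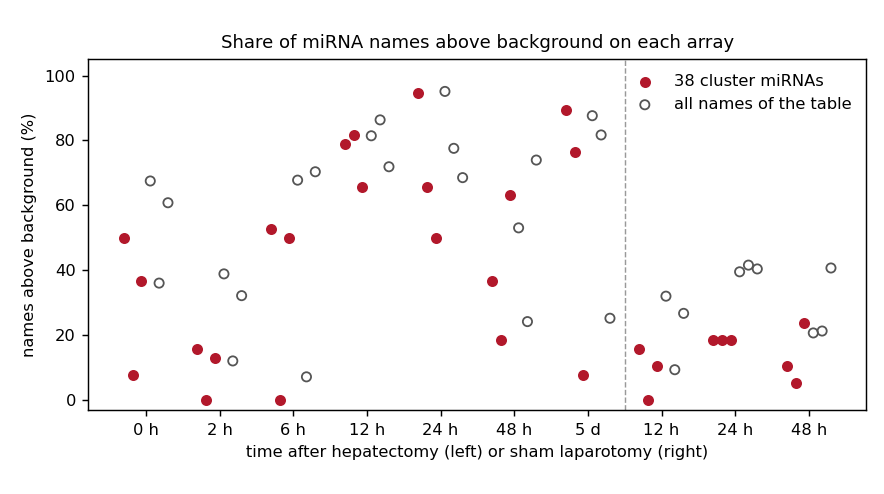
Share of names above background on each array (percent, y axis), for the 38 cluster members (red points) and for all names of the same table (open points), by group (x axis). Both shares move together from array to array, and the members reach 36 of 38 on 1 array at 24 h and none on 1 array each at 2 h, at 6 h and at 12 h after sham.

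In all, 23 members lay above background on all 3 arrays of at least 1 hepatectomy group. On the Rtl1 side these were miR-493 (8 of 21 arrays), miR-540 (15), miR-431 (17), miR-433 (14), miR-434 (7), miR-341 (11) and miR-370 (11). From Mir379 on they were miR-329 (17), miR-376a (13), miR-376b-3p (13), miR-376c (10), miR-377 (16), miR-381 (12), miR-410 (13), miR-411 (7), miR-485 (12), miR-494 (10), miR-495 (15), miR-539 (6) and miR-667 (18), together with miR-323 (10), miR-369-5p (12) and miR-134 (10), the last known in neurons for limiting the size of dendritic spines through Limk1. The other 15, miR-127, miR-136, miR-154, miR-299, miR-337, miR-369-3p, miR-376b-5p, miR-379, miR-382, miR-409-3p, miR-409-5p, miR-412, miR-487b, miR-541 and miR-543, were above background on 2 to 10 arrays and never on all 3 of a group. The 10 members on the Rtl1 side were above background on a median of 9.5 hepatectomy arrays and the 28 from Mir379 on a median of 10.

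The time course asked which members differed from 0 h in the regenerating liver. At 24 h, 1 of the 38 members rose, miR-376b-3p, and none fell, while 37 did not pass the test (limma, Benjamini-Hochberg adjusted p under 0.05 over all 388 names). The background was 7.73% of names called at 24 h, 2.84% of names higher and 4.90% lower. Levels below are log2 of the background-corrected and normalized intensity, averaged over the spots of a name. miR-376b-3p stood at 8.14, 7.95 and 8.11 on the 3 arrays at 24 h, against 7.65, 7.52 and 7.53 at 0 h. Every array at 24 h was above every array at 0 h. The log2 difference was 0.50 (SE 0.134, adjusted p = 0.0290, n = 3 per group), a ratio of 1.41, and the group means were 8.07 ± 0.10 at 24 h and 7.57 ± 0.07 at 0 h (SD).

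The unprocessed signal behind that rise was low. Over the subtracted background, the median spot of miR-376b-3p was at 344, 200 and 208 intensity units at 24 h, against 80, 0 and 48 at 0 h, and it was above background on 3 of 3 arrays at 24 h and on 1 of 3 at 0 h. The log2 scale with an offset understates ratios this close to background. miR-376b-3p also separated from 0 h at 12 h, with 7.87, 8.09 and 8.02, and at 5 d, with 7.72, 7.88 and 7.83, but neither difference passed (0.43, adjusted p = 0.0862, and 0.24, adjusted p = 0.407). At 2, 6 and 48 h its differences were 0.13, 0.26 and 0.24 (adjusted p = 0.969, 0.779 and 0.408). Over the 7 times together it was not called by limma's moderated F test (adjusted p = 0.337).

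The call at 24 h was lost without replicate 2 or 3 at 0 h (adjusted p = 0.0658 and 0.0764) and without replicate 1 or 3 at 24 h (0.101 and 0.0639). It was also lost under 7 of 14 other processing settings, for instance with 75th percentile centring in place of quantiles (0.41, adjusted p = 0.139).

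miR-376c, from the hairpin next to miR-376b, lay above every 0 h array at 6, 12, 24 and 48 h and 5 d, though no difference passed. The 12 h arrays read 7.82, 7.81 and 7.74 and the 24 h arrays 7.78, 7.81 and 7.70, against 7.29, 7.43 and 7.41 on the 0 h arrays. At 12 h its difference from 0 h was 0.42 (SE 0.126, adjusted p = 0.0862) and at 24 h 0.39 (adjusted p = 0.0665). As miR-376c was above background on no array at 0 h, its level there is a bound, and the 12 h mean was at least 1.26-fold higher (above background on 3 of 3 arrays) and the 24 h mean at least 1.24-fold higher (2 of 3 arrays). These bounds set the mean of the group against, on each 0 h array, the lowest level of any name above background there or the member's own level, whichever was higher. Here and for other members below, such a bound describes the means of the arrays measured and leaves out the spread between replicates. The group mean also takes in arrays that were not above background. At 6 h, 48 h and 5 d, with 2, 1 and 2 arrays above background, its mean was at least 1.12-fold, 1.14-fold and 1.12-fold higher. None of these differences passed (adjusted p = 0.779, 0.272 and 0.395). At 2 h it was above background on no array of either group, and no ratio is given. All 6 comparisons share the same 3 arrays at 0 h and are not independent of one another.

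The other names of the family did not separate from 0 h at any time. miR-376a had 7.70, 7.45 and 7.70 at 24 h, against 7.74, 7.69 and 7.26 at 0 h, and its differences ran from 0.02 to 0.29 over the 6 times. miR-376b-5p, the opposite arm of the hairpin that gives miR-376b-3p, had 7.03, 7.36 and 7.22 at 24 h, against 7.09, 7.40 and 7.49 at 0 h. Its differences ran from -0.28 to 0.23, on the 2 arrays where it was above background and 19 where it was not. A difference between the 2 arms of miR-376b was not tested.

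**Figure D2:**
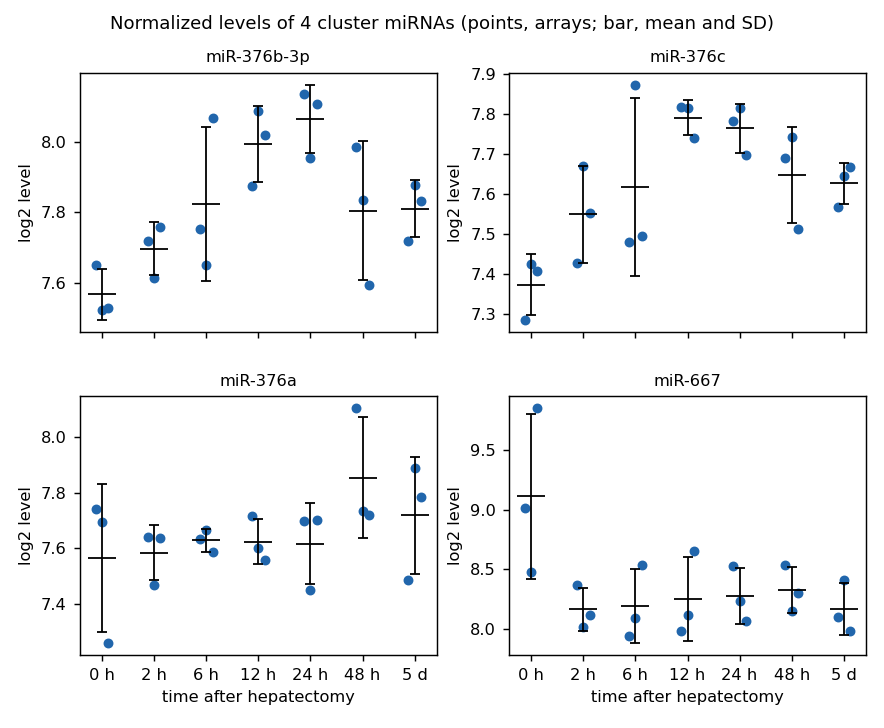
Log2 normalized intensity (y axis) of miR-376b-3p, miR-376c, miR-376a and miR-667 by time after hepatectomy (x axis), with points for single arrays and bars for the group mean with its SD (n = 3). miR-376b-3p is at 8.07 ± 0.10 at 24 h and 7.57 ± 0.07 at 0 h, and miR-667 has a single array at 9.85 at 0 h.

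miR-667 had the lowest differences from 0 h among the members at all 6 later times, but it was not called at any of them. Its levels at 0 h were 9.01, 8.48 and 9.85, so the 3 arrays spread over more than 1 log2 unit. On the arrays of 2 h it read 8.37, 8.02 and 8.11, on those of 24 h 8.53, 8.24 and 8.07, and on those of 5 d 8.10, 8.41 and 7.98. The groups did not overlap at 2 h and 5 d and overlapped at the other 4 times. The log2 differences were -0.95, -0.92, -0.86, -0.84, -0.78 and -0.95 at 2, 6, 12, 24 and 48 h and 5 d (SE 0.263 each), with adjusted p = 0.213, 0.292, 0.0862, 0.0586, 0.112 and 0.134, and the F test had an adjusted p of 0.291.

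A single array at 0 h set the size of these differences. Over background, miR-667 was at 272, 184 and 1240.25 intensity units at 0 h. Without replicate 3 at 0 h, the differences ran from -0.58 (2 h, adjusted p = 0.758) to -0.42 (48 h, adjusted p = 0.491). Without replicate 2 at 0 h instead, miR-667 was called lower at all 6 times, with -1.15 at 24 h (adjusted p = 0.0101) and -1.26 at 2 h (adjusted p = 0.0334).

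At 12 h no member was called, where the background was 2.84% of 388 names, 0.515% higher and 2.32% lower. Besides miR-376b-3p, miR-376c and miR-667, the Rtl1-antisense miR-433 had an unadjusted p under 0.05, with 7.99, 7.96 and 8.12 at 12 h, against 7.49, 7.51 and 7.69 at 0 h (0.46, adjusted p = 0.191). At 24 h miR-433 had 8.22, 7.81 and 8.00 (0.45, adjusted p = 0.134). miR-410, at the far end of the array of hairpins, had 8.13, 7.92 and 8.46 at 24 h, against 7.91, 7.69 and 7.61 at 0 h (0.43, adjusted p = 0.128). Both miR-433 and miR-410 lay wholly above their 0 h arrays at 24 h.

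At 48 h no member was called and the background was 4.12% of names, 0.515% higher and 3.61% lower. Besides miR-667, miR-370 and miR-487b came nearest, the first of which is linked in human liver cells to the fatty acid enzyme Cpt1a. miR-370 had 8.19, 7.65 and 7.69 at 48 h, against 7.37, 7.63 and 7.19 at 0 h (0.45, SE 0.168, adjusted p = 0.166). miR-487b had 7.89, 8.12 and 7.26 at 48 h, against 7.10, 7.28 and 7.43 at 0 h (0.48, SE 0.191, adjusted p = 0.192). The miR-370 groups did not overlap, while 1 of the 3 arrays at 48 h held miR-487b within its 0 h range. miR-323 had 8.32, 7.60 and 7.43 at 48 h, against 7.28, 7.42 and 7.28 at 0 h, and was at least 1.29-fold higher (adjusted p = 0.228), with 2 of 3 arrays at 48 h above background and none at 0 h. miR-337 had 7.65, 8.07 and 7.08 at 48 h, against 7.02, 7.26 and 6.88 at 0 h, with adjusted p = 0.215. It was above background on 1 of 3 arrays at 48 h and on none at 0 h, and no ratio is given. In each of these 4 miRNAs the arrays at 48 h spread further than those at 0 h. Without replicate 3 at 48 h, miR-337 and miR-487b were called.

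At 2 h the background was 0% of 388 names called, and no member was called. miR-409-5p had 7.65, 7.72 and 7.76 at 2 h, against 7.30, 7.43 and 7.62 at 0 h (adjusted p = 0.798), and miR-154 had 7.53, 7.82 and 7.61, against 7.07, 7.50 and 7.29 (adjusted p = 0.896). Neither was above background on any array at 2 h, and no ratio is given. At 6 h and at 5 d the background was 0.258% of names called, and again no member was called. miR-382 had 7.10, 6.75 and 7.17 at 5 d, against 7.33, 7.62 and 7.38 at 0 h (adjusted p = 0.395), and was above background on 1 of these 6 arrays.

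At an unadjusted p under 0.05 there were 1, 1, 4, 5, 6 and 1 members at 2, 6, 12, 24 and 48 h and 5 d. These were 2.63%, 2.63%, 10.5%, 13.2%, 15.8% and 2.63% of the members, where the shares of all names were 6.19%, 6.70%, 18.8%, 27.1%, 16.0% and 13.7%. The members' share was below that of all names at all 6 times. Members whose arrays lay wholly above the 0 h arrays numbered 6, 1, 7, 7, 4 and 3 (15.8%, 2.63%, 18.4%, 18.4%, 10.5% and 7.89%), and the shares of all names were 8.51%, 7.73%, 15.5%, 20.6%, 9.28% and 9.54%. At 2 h, 31 of the 38 members were above background on no array, and 7 were measured at both 2 h and 0 h. Members wholly below numbered 2, 0, 0, 0, 1 and 2 (5.26%, 0%, 0%, 0%, 2.63% and 5.26%), against 5.15%, 5.67%, 9.79%, 12.4%, 8.76% and 6.70% of all names. The members' median log2 difference was 0.11, 0.07, 0.08, 0.13, 0.09 and 0.03, and that of all names 0.03, 0.04, 0.05, 0.07, 0.09 and 0.03. With 75th percentile centring the members' median was -0.062, -0.055, -0.079, 0.018, -0.10 and -0.056, so its sign turned at every time but 24 h, and that of all names was -0.12, -0.065, -0.096, -0.028, -0.087 and -0.071. At 24 h, 28 of 38 members and 231 of 388 names had a positive difference. Over the 7 times, no member passed the F test, against 2.32% of names.

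A mean above that of 0 h at all 6 times was found for 12 of 38 members (31.6%) and 112 of 388 names (28.9%). The 12 were miR-127, miR-323, miR-337, miR-376a, miR-376b-3p, miR-376c, miR-379, miR-409-5p, miR-410, miR-433, miR-485 and miR-539. Of these, miR-323, miR-337, miR-376c, miR-379 and miR-539 were above background on no array at 0 h. For miR-412 and miR-667 the mean was below that of 0 h at all 6 times, as it was for 78 of the 388 names (20.1%). All 6 means are set against the same 3 arrays. By position at 24 h, 9 of the 10 members on the Rtl1 side had a positive difference (median 0.14, none called), as had 19 of the 28 from Mir379 on (median 0.12, 1 called).

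**Figure D3:**
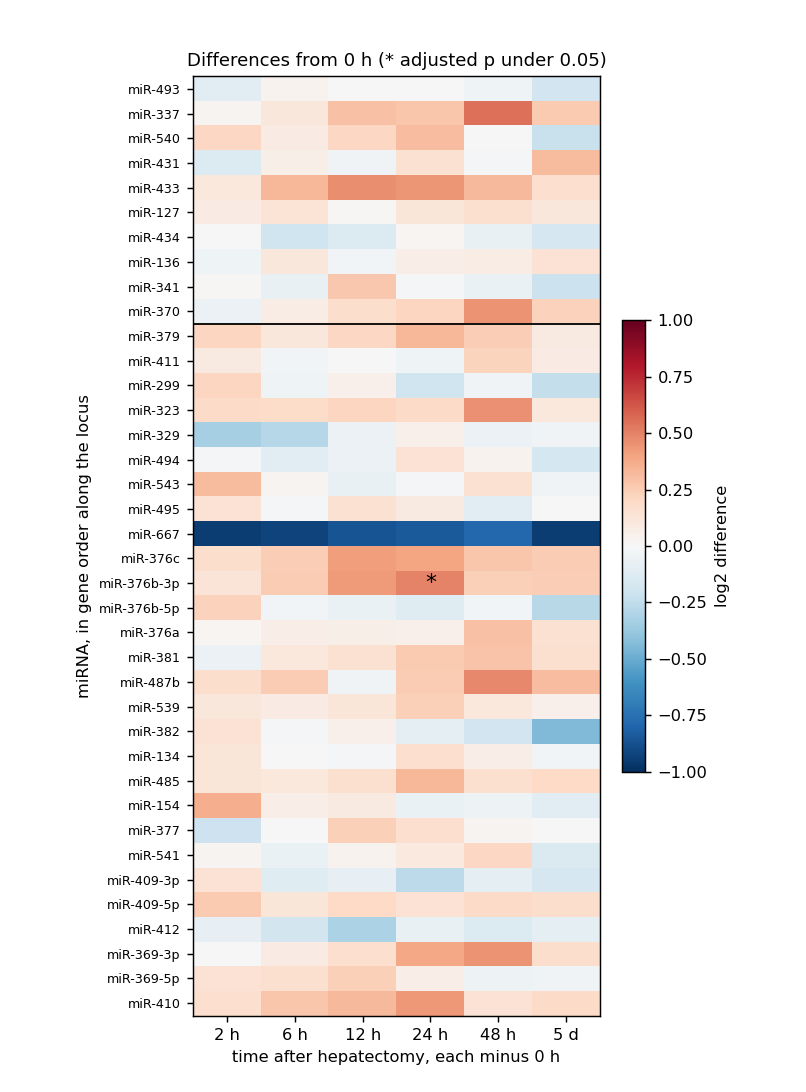
Log2 difference from 0 h (colour) of each of the 38 members, in gene order down the page, at 2, 6, 12, 24 and 48 h and 5 d (across). The star marks the 1 call, miR-376b-3p at 24 h (0.50), the line separates the 10 members before Mir379 from the 28 from Mir379 on, and the darkest row of negative values is miR-667.

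Other miRNAs of the locus, among them star strands, miR-300 and miR-380, numbered 15 on the hepatectomy arrays. Of these 1 rose at 24 h and none fell, where 2.84% of all names were higher and 4.90% lower. The riser was miR-380, with 7.92, 8.04 and 7.85 at 24 h, against 7.45, 7.50 and 7.43 at 0 h (0.48, SE 0.136, adjusted p = 0.0390), and its arrays did not overlap between the times. Its signal was low, at 304, 168 and 112 intensity units over background at 24 h, against 40, -8 and 72 at 0 h. This call was not followed under other settings or with arrays left out. miR-300-3p had a difference of 0.58 (adjusted p = 0.0740) and miR-136*, the star strand of that hairpin, one of 0.48 (adjusted p = 0.114). None of the 15 was called at another time. Both mature arms of miR-380 in RefSeq (GRCr8, chromosome 6, plus strand) follow, as the name of this second miRNA of the locus called at 24 h gives no arm.
miR-380-5p (chr6:134546245-134546266): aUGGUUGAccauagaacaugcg
miR-380-3p (chr6:134546281-134546301): uAUGUAGUaugguccacaucu

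Some markers of other cell types moved at 24 h as well. Among the neural markers miR-124, miR-9, miR-128 and miR-153, 1 of 4 rose, miR-153 (0.87, adjusted p = 0.00629), and 2 of 4 had a negative difference. Their summed intensity over background was 472 to 1480 at 24 h, against 104 to 336 at 0 h. The median of all names over background was higher at 24 h too, as given above. miR-9 was above background on no 0 h array. Of the mesenchymal markers 1 of 4 fell, miR-145 (-1.12, adjusted p = 0.0150), with sums of 728 to 2153 at 24 h and 644 to 2476 at 0 h. The endothelial miR-126 fell (-1.52, adjusted p = 0.0113). Of the leukocyte markers 1 of 5 rose, miR-142-5p (0.49), and 1 fell. None of the 3 skeletal muscle markers was called, and their differences ran from -0.50 to 0.15. Their sum was 244 to 504 at 24 h, against 40 to 160 at 0 h, where miR-1 and miR-206 were above background on no array. The part of these cell types in the rise of miR-376b-3p was not tested.

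Sham laparotomy served as the control for surgery. At 24 h, 2 of the 38 members were higher after hepatectomy than after sham and passed the test, miR-540 and miR-410, and none was lower, where the background was 11.4% of 376 names called, 4.52% higher. On the joint scale of both tables miR-540 stood at 7.57, 7.72 and 8.20 after hepatectomy, against 7.29, 7.05 and 7.01 after sham. The difference was 0.71 (SE 0.214, adjusted p = 0.0263, n = 3 per group). miR-410 stood at 7.90, 7.85 and 8.63 after hepatectomy, against 7.59, 7.39 and 7.42 after sham, a difference of 0.66 (SE 0.202, adjusted p = 0.0271). Hepatectomy arrays lay above all sham arrays for both, with replicate 3 highest in each. Before normalization replicate 3 was not the highest for either, and for miR-540 it was the lowest, at 64 intensity units over background against 240 and 128. The hepatocyte miR-122 was also lowest on that array, at 1008.5 units against 11339 and 2457.

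Neither miR-540 nor miR-410 was above background on any sham array. Over background, miR-540 read 240, 128 and 64 intensity units after hepatectomy at 24 h, against 24, -24 and -20 after sham. miR-410 read 360, 136 and 280 after hepatectomy, against 24, 12 and 32 after sham. With sham as a bound, miR-540 was at least 1.29-fold higher after hepatectomy (above background on 3 of 3 arrays) and miR-410 at least 1.54-fold higher (2 of 3 arrays). Both calls were lost without replicate 3 after hepatectomy, with 0.53 for miR-540 (adjusted p = 0.149) and 0.41 for miR-410 (adjusted p = 0.223), and without replicate 2 or 3 after sham. The operation and the chip layout are the same split of the arrays and cannot be told apart here.

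Next in order of p at 24 h was miR-485, at 7.63, 7.98 and 7.56 after hepatectomy, against 7.32, 7.29 and 7.18 after sham. It was at least 1.20-fold higher (adjusted p = 0.0673), with no sham array above background and no overlap between the groups. miR-493 stood at 7.44, 7.73 and 7.32 after hepatectomy, against 6.97, 7.06 and 7.03 after sham (at least 1.02-fold with 2 of 3 hepatectomy arrays above background, adjusted p = 0.0753). For miR-376b-3p, the member that rose against 0 h, the level was 7.92 at 24 h after hepatectomy, against 7.78 after sham (0.13, adjusted p = 0.596). Of the 38 members, 24 were below background in the sham group alone at 24 h, 2 in both groups, and 12 were measured in both.

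At 12 and 48 h no member was called against sham, where the background was 1.06% and 2.39% of names. At 12 h, miR-540 stood at 7.67, 7.85 and 7.59 after hepatectomy, against 7.00, 6.86 and 7.23 after sham (adjusted p = 0.0819), and miR-410 at 7.86, 8.03 and 7.87 after hepatectomy, against 7.50, 7.34 and 7.37 after sham, at least 1.10-fold higher (adjusted p = 0.139). Both sets of arrays lay wholly above sham at 12 h too. miR-329 was at -0.51 (adjusted p = 0.206). At 48 h the 2 miRNAs overlapped with sham, and the members nearest to the threshold were miR-485 (adjusted p = 0.320), miR-667 (0.53, adjusted p = 0.407) and miR-323 (adjusted p = 0.433). At an unadjusted p under 0.05 there were 3, 6 and 1 members at 12, 24 and 48 h (7.89%, 15.8% and 2.63%), where the shares of all names were 19.9%, 25.8% and 14.6%. The members' median difference from sham was -0.02, 0.02 and 0.06 at 12, 24 and 48 h, and that of all names -0.01, 0.01 and 0.03. Members wholly above sham numbered 3, 5 and 1 (7.89%, 13.2% and 2.63%), against 13.3%, 19.4% and 7.45% of names, and members wholly below 3, 1 and 0 (7.89%, 2.63% and 0%), against 13.0%, 17.8% and 10.4%.

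**Figure D4:**
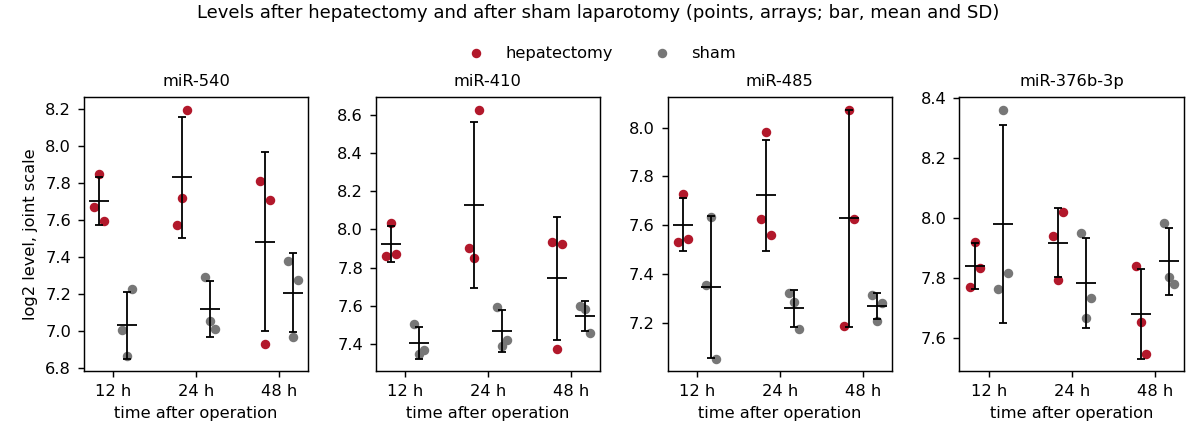
Log2 intensity on the joint scale (y axis) of miR-540, miR-410, miR-485 and miR-376b-3p at 12, 24 and 48 h (x axis), with hepatectomy arrays in red left of sham arrays in grey and the group mean as a bar with its SD (n = 3). At 24 h miR-540 averages 7.83 ± 0.33 after hepatectomy and 7.12 ± 0.15 after sham, while miR-376b-3p averages 7.92 and 7.78.

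Comparing the change between times removes any constant offset between the tables. No member was called for the change between 12 and 24 h or between 12 and 48 h, and the background was 0% of names in both. At an unadjusted p under 0.05 there were 2 members and 0 members, against 4.79% and 2.93% of all names. Between 12 and 24 h, hepatectomy minus sham, the difference in change was 0.37 for miR-381 (SE 0.162, adjusted p = 0.838), 0.43 for miR-539 (adjusted p = 0.904) and 0.27 for miR-376b-3p (adjusted p = 0.983). Between 12 and 48 h it was 0.32 for miR-381, 0.45 for miR-487b and 0.26 for miR-411 (adjusted p = 0.975 each). miR-381, miR-539, miR-487b and miR-411 were above background on no sham array at 12, 24 or 48 h, so these values rest on sham levels within the background.

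Among the sham times themselves no member was called and the background was 0% of 680 names. At 24 h against 12 h, 33 of 38 members and 416 of 680 names had a negative difference, with medians of -0.08 and -0.03. Members wholly below their 12 h arrays numbered 9 (23.7%) and wholly above 0, against 9.26% and 4.71% of names. Of the 38, however, 26 were above background on no array of either group and 8 were measured in both, so most of these levels lay within the background. Nearest to the threshold were miR-539 (adjusted p = 0.310), miR-493 (adjusted p = 0.487) and miR-381 (adjusted p = 0.525), all below background in both groups. miR-377, above background on 1 of 3 arrays at each of 12 and 24 h, was at -0.27 (adjusted p = 0.537). At 48 h against 12 h the nearest were miR-377 (-0.26, adjusted p = 0.731), miR-341 (adjusted p = 0.731) and miR-539 (adjusted p = 0.749), and 25 of 38 members had a negative difference. In the F test over the 3 sham times, the smallest were miR-539 (adjusted p = 0.684), miR-493 and miR-377 (adjusted p = 0.790 both).

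Members moved together only weakly from array to array. Over the 21 hepatectomy arrays the median Pearson correlation among the 703 pairs of members was 0.17, against 0.00 among all pairs of names, and 67.7% of the member pairs were positive. With each array's deviation from its group mean in place of the level, the medians were 0.20 and 0.01. Arrays shared their normalization and their background, and with median centring the medians of the deviations were 0.39 for members and 0.10 for all names. The closest pair was miR-337 with miR-369-3p (0.91), each above background on 6 of the 21 arrays. The most opposed pair was miR-299 with miR-431 (-0.80). miR-154 with miR-299 reached 0.85 and miR-299 with miR-376b-5p 0.84, and these 3 were above background on 2 to 6 of the 21 arrays.

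Likeness to the called member was looked at over all names, on levels, so that differences between the time groups enter these correlations. miR-376b-3p correlated with miR-376c at 0.56, with miR-376a at 0.26 and with its own opposite arm miR-376b-5p at -0.33 over the 21 arrays. It correlated at 0.74 with miR-433 and at 0.68 with miR-380. As miR-376b-3p and miR-380 were both picked by their call at 24 h, their correlation is not separate evidence of likeness. Over all 388 names, the closest to miR-376b-3p were miR-628 (0.85), miR-448 (0.79), miR-568 (0.78), the neural marker miR-153 (0.77) and the leukocyte marker miR-142-5p (0.75). None of these lies in the locus, and the member miR-433 came next.

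**Figure D5:**
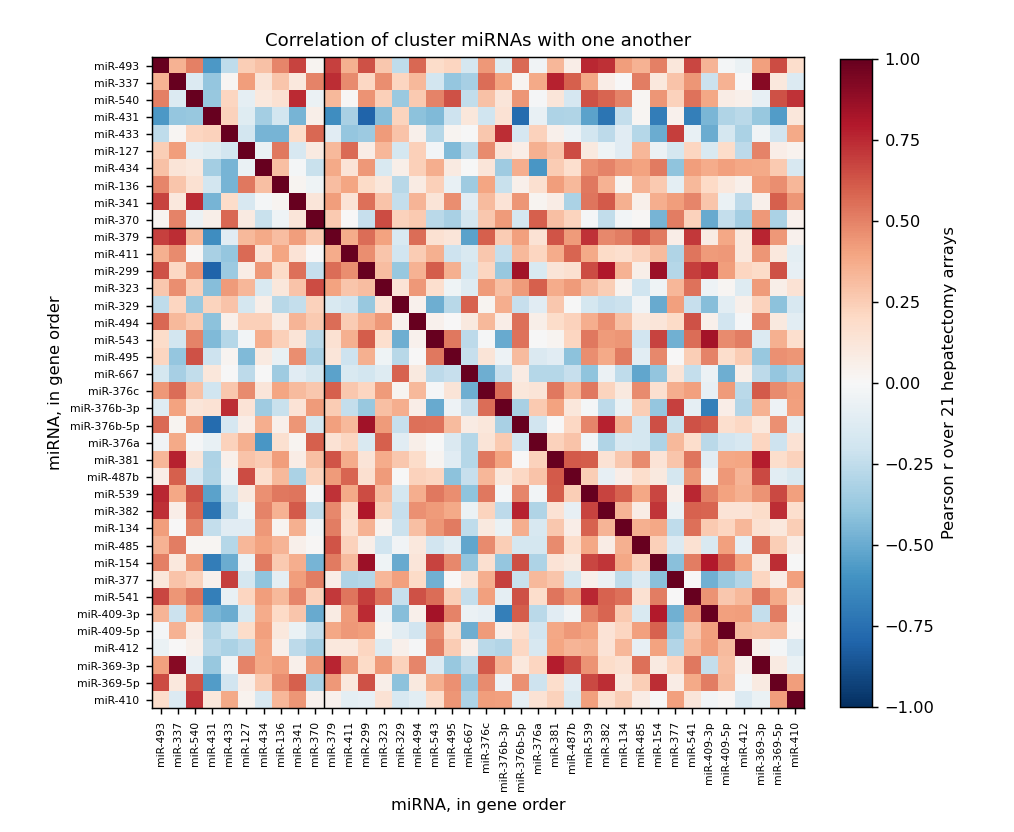
Pearson correlation (colour) between the levels of the 38 members over the 21 hepatectomy arrays, with members in gene order on both axes. Values run from -0.80 to 0.91 around a median of 0.17, and no block of neighbouring genes stands out as uniformly high.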

How the data were processed

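The authors deposited linear raw intensity for every spot of each array and a background-subtracted median per name. The authors also deposited processed values on a log2 scale, whose column medians were 5.64 to 6.09; set against the scanner values they followed log2 of the background-subtracted intensity at high signal, and the sources used here do not say how they were scaled or centred, which image software was used or what the probe sequences are. Replicate numbers follow the raw tables, from which 4 columns of the processed values were exchanged within the 2 h and 48 h groups.

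Raw intensities were corrected with normexp (offset 50), log2 transformed, quantile normalized and averaged over the spots of a name. For hepatectomy against sham, spots were averaged first, because layouts differ. limma 3.58.1 (R 4.3.3) fitted lmFit and eBayes over 21 hepatectomy, 9 sham or all 30 arrays, with 14, 6 and 20 residual degrees of freedom. Tests were two-sided, with Benjamini-Hochberg adjustment over all names of a fit and a threshold of 0.05, and every single-miRNA adjusted p comes from limma. The fits were run on simulated log2 levels with independent noise and known changes, larger than those of the called members. Background correction and normalization were not simulated, so this run does not speak to calls near background. The number of arrays limits the precision: the members' median SE was 0.182 between hepatectomy times.

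The members and the marker lists were chosen with earlier results of these data known. Named with values are members past the threshold, the 3 smallest p values of each comparison and members above background on all 3 arrays of a group. miR-380, miR-300-3p and miR-136*, and members with values at 48 h beyond the 3, were named after their values were seen. Alternatives covered scaling, background, spot summary, starting table, filter, weights, signal span, blocks and left-out arrays.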

Additional observations from a re-analysis of the deposited data

How the results depend on the processing

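Apart from left-out arrays, 195 counts and summaries were compared with their reported values, of which 157 stayed within 1.5 times or the spread between replicates, 22 were larger, 11 smaller and 5 others moved. Of 729 values for single members and members' medians, 619 kept their side of the threshold or lay within the spread. Of the rest, 30 newly passed, 18 no longer passed, 55 medians moved and 7 turned sign. A count of 0 that stayed 0 was scored as unchanged, as was an uncalled member that stayed uncalled. In the main fits members were called only at 24 h, against 0 h and against sham. These tallies therefore say little about how stable those calls were. The members called against 0 h varied most at 24 h, from 1 to 0 with 75th percentile centring, with no normalization, with the authors' background-subtracted values, with only the compared groups and on the high-background arrays alone, those with a median raw intensity of 976 to 1328. It was 3 with array weights, 5 when signal span was a covariate and 3 with the replicate block. With the median of spots and with the authors' processed values the 1 member called at 24 h was miR-667, lower, and not miR-376b-3p. At 12 h the count was 4 with array weights, 2 with signal span and 2 with the background level as a block. At 48 h it was 4 with array weights and 1 each with the median of spots, signal span and the background-level block. At 5 d it was 2 with array weights, 3 with signal span and 1 with the background-level block. Array weights gave 1 at 2 h, 1 at 6 h and 5 in the F test, and their estimation stopped before its tolerance was reached. The cause of these shifts was not tested.

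Against sham at 12 h, 14 members were called with no normalization, and 1 each with the median of spots, the processed values, array weights and only the compared groups. At 24 h the count was 0 with no normalization, the background-subtracted values, the median of spots and signal span, 1 with no background correction and with only the compared groups, and 6 with array weights. With signal span, miR-540 was at 0.40 (adjusted p = 0.469) and miR-410 at 0.37 (adjusted p = 0.473). miR-540 passed under 7 and miR-410 under 6 of 12 settings. Over all names, the calls at 24 h against 0 h were 30, and 19 with median centring, 15 with 75th percentile centring, 0 with no normalization, 6 with background-subtracted values, 92 with array weights, 103 with signal span, 18 on the high-background arrays and 46 with the background-level block. At 24 h against sham they were 43, and 65 with 75th percentile centring, 16 with no normalization, 19 with background-subtracted values, 123 with array weights and 10 with signal span. Median centring moved the split at 24 h to 5 higher and 14 lower against 0 h, and to 9 and 50 against sham. With no normalization the median of all names was at 0.35 against 0 h and 0.26 against sham at 24 h.

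Signs turned with no normalization for miR-329 at 12 h against sham (0.36), for the change between 12 and 24 h of miR-381 (-0.045) and miR-376b-3p (-0.30), for sham 24 h against 12 h of miR-493 (0.042) and miR-381 (0.057), and for sham 48 h against 12 h of miR-341 (0.021) and miR-539 (0.015). Leaving out each array in turn, the members called ran from 0 to 1 at 2, 6, 12 and 24 h and 5 d, 0 to 2 at 48 h, 0 to 0 in the F test, 0 to 0 at 12 and 48 h against sham, 0 to 2 at 24 h against sham, and 0 to 0 for changes and sham times. Without replicate 3 after hepatectomy at 24 h, the member called against sham was miR-431. miR-323 at 48 h against sham ran from -0.011 to 0.45. With the median of the raw spots in place of the 25th percentile, 38 members were above background on all 3 arrays of a hepatectomy group, and with a margin of 1.5 times the constant 0 were, against 23. In sham groups these counts were 22 and 0, against 3. The median correlation of members was 0.39 with median centring, against 0.20. Replicate numbers were not taken as pairing in the main fits. Of 63 same-numbered pairs of hepatectomy arrays, 32 deviated together with a correlation over 0.1, and the lowest correlation was -0.76. The median over the 63 pairs was 0.15, against -0.13 for other numbers, and in sham arrays 0.22, against -0.07. In the hepatectomy groups, 11 of 21 arrays correlated best with their own number. By this measure arrays of the same number were somewhat more alike, which the replicate block given above takes into account. Deviations within a group sum to 0 for each name, so the values for same and other numbers are not independent. Replicate 2 was a high-background array in every hepatectomy group but 5 d. The parts of replicate number and background level in this likeness were not tested. Leaving out dim names kept 37 of 38 members in the hepatectomy fit and 8 in the sham fit.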
